A study of Saccharomyces cerevisiae with 18 samples.

Results

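The comparison described here is day 4 against day 1 of chronological aging in a budding yeast strain without BRE1, over all genes of the deposited count table. Its members are the 3 libraries of the deletion strain (bre1Δ) collected at day 1 and the 3 collected at day 4, so 6 of the 18 libraries of the series, chosen by genotype and day as labelled. The 12 other libraries are wild type (WT) and a strain without SET2 (set2Δ), with 3 libraries at day 1 and 3 at day 4 each, and they were used to share 1 estimate of the spread between replicates and to test whether the change from day 1 to day 4 differed between strains. All strains are haploid cells of the BY4742 laboratory background. Cultures were grown overnight in YPD, a rich medium with glucose, at 30 °C. They were then brought to a starting density (OD600) of 0.1 and harvested at day 1 or day 4. RNA was extracted with Trizol, polyadenylated RNA was made into libraries, and these were sequenced on a NovaSeq 6000. The labels name a single deletion strain per genotype and do not say whether replicates were separate cultures, so the p-values measure the spread between these libraries, which may be technical. How BRE1 was replaced is not given in the sources used here. The study's title places Bre1 upstream of the loss of the Set2 protein in aging cultures.

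Bre1 is the ubiquitin ligase that, with the conjugating enzyme Rad6 and the Paf1 complex, places a single ubiquitin on histone H2B along transcribed genes. That mark is needed for full methylation of histone H3 by Set1 at lysine 4 and by Dot1 at lysine 79, while Set2 methylates lysine 36. In a culture that ages in the medium it has used up, yeast first ferments glucose, then respires the ethanol it made, and then stops dividing. In such cultures genes of ribosomes and growth are usually low, and genes of respiration, storage sugars and stress protection are usually high. Cell separation, which figures in the results below, is the last step of division: the daughter cell secretes enzymes that digest the septum, under transcription factors such as Swi5.

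The 6 bre1Δ libraries held between 12500920 and 29514490 counts. BRE1 itself (YDL074C, chromosome IV, 324047 to 326149 in R64, the sacCer3 assembly) had 0 counts in the 3 day 1 libraries. At day 4 it had 1, 0 and 1 counts in replicates 1, 2 and 3. With a floor of 3 counts in each library, this is at least 368-fold lower than WT at day 1, and at day 4 it was 2980-fold lower than WT, with an exact Poisson 95% interval of 825 to 24600 that covers counting error only. Replicates of one day correlated at 0.9929 or more on the log2 scale across genes. Replicates 1 and 3 of day 4 lay unusually close together, with a chi-square per gene of 1.52, where 1 is counting noise alone and the 5 other replicate pairs gave 10.3 to 25. They differed by more than counting noise and were kept as separate libraries, and counts of calls with these libraries summed are given with the alternatives.

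Of 6320 genes tested with edgeR's quasi-likelihood test at a Benjamini-Hochberg adjusted p of 0.05, 4827 (76.4%) changed between day 1 and day 4, with 2398 (37.9%) higher and 2429 (38.4%) lower at day 4. A change of at least 2-fold was found for 1123 genes (17.8%), with 627 (9.92%) higher and 496 (7.85%) lower. The median change over all genes tested was −0.02 on the log2 scale. All 3 libraries of one day lay above all 3 of the other for 4916 genes (77.8%), so a gene whose groups do not overlap is the common case here and counts of members are to be read against these shares. Values per library are CPM, a gene's count relative to its library's total on a scale common to all libraries, with totals adjusted by the trimmed mean of M values (TMM), changes are log2 fold changes with standard errors (SE), and n was 3 libraries per group throughout. Since the RNA came from whole cultures, a larger number of cells of a kind and more RNA per cell cannot be told apart.

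Genes that separate daughter from mother cells had the highest median change of the 70 lists described in bre1Δ. Of 12 such genes, 11 were higher at day 4 and 1 lower, and 10 rose at least 2-fold. Their median change was 2.7, against −0.02 for all genes, and together they took 0.421 to 0.714% of all counts at day 1 and 4.38 to 4.6% at day 4.

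CTS1 (YLR286C, chromosome XII, 708448 to 710136), the endochitinase that cuts the septum, had 864, 1630 and 1480 CPM in the day 1 libraries and 14800, 14200 and 14900 CPM in the day 4 libraries. All day 4 libraries were far above all day 1 libraries, and the rise was 11.0-fold (log2 3.46 ± 0.22 SE, adjusted p = 1.01e-11 by edgeR with Benjamini-Hochberg adjustment). Per length, CTS1 rose from a mean of 835 to 9100 FPKM. DSE2 (chromosome VIII, 385510 to 386487), which encodes a secreted protein of daughter cells, had 333, 626 and 548 CPM at day 1 and 5200, 5010 and 5250 CPM at day 4, a rise of 3.36 ± 0.25. SCW11 (chromosome VII, 441281 to 442909), a wall protein of the glucanase family, had 228, 442 and 402 CPM at day 1 and 3760, 3430 and 3800 CPM at day 4, a rise of 3.36 ± 0.26. In all of these the first replicate of day 1 was the lowest library and the day 4 libraries were close to each other. PRY3 (chromosome X, 291336 to 293981), which encodes a wall-bound glycoprotein, had 320, 553 and 506 CPM at day 1 and 4120, 3490 and 4180 CPM at day 4, a rise of 3.09 ± 0.17. DSE1 (chromosome V, 407342 to 409063), another protein made in daughters, had 524, 958 and 921 CPM at day 1 and 5730, 5310 and 5820 CPM at day 4, a rise of 2.81 ± 0.21. EGT2 (chromosome XIV, 24048 to 27173), a wall protein needed for timely separation, had 363, 685 and 604 CPM at day 1 and 3480, 3020 and 3450 CPM at day 4, a rise of 2.59 ± 0.23. The groups did not overlap for any of these genes.

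The other risers of the group were DSE3 (2.82), the septum glucanase gene DSE4 (2.53), AMN1, which helps switch off mitotic exit in daughters (2.36 ± 0.18), ASH1, the daughter-specific repressor of mating-type switching (1.21 ± 0.10), and the wall protein gene PIR1 (0.71 ± 0.09). SWI5, an activator of such genes, fell, from 34.3, 38.1 and 30.0 CPM at day 1 to 9.74, 13 and 13.3 CPM at day 4 (−1.49 ± 0.11). No library of SWI5 at day 4 reached the lowest at day 1. mRNA levels do not report the location or activity of this protein.

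**Figure D1:**
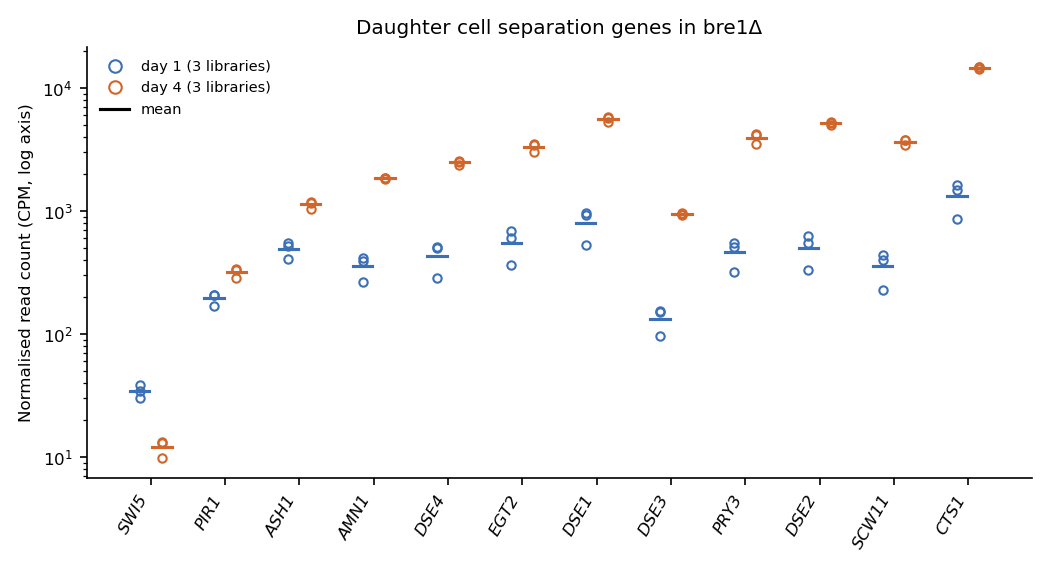
CPM of 12 genes of daughter cell separation in each bre1Δ library, on a log axis, with day 1 and day 4 libraries as separate points and the mean of each day as a bar. CTS1 runs from 864 to 1630 CPM at day 1 and from 14200 to 14900 CPM at day 4, and SWI5 is the gene that is lower at day 4.

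The change of this group differed from that of the other strains. The day 4 against day 1 change in bre1Δ minus that in WT passed the test for 4857 of 6320 genes (76.9%; 40.0% higher and 36.9% lower in bre1Δ), and that minus the set2Δ change for 4535 (71.8%; 36.7% higher and 35.1% lower). Of the 12 daughter genes, 11 had a higher and 1 a lower change than WT, and 10 a higher and 1 a lower change than set2Δ. CTS1 fell in WT (−0.73), and in set2Δ the difference between days was 0.20, which did not pass the test (adjusted p = 0.393 by edgeR with Benjamini-Hochberg adjustment). The difference of its change was 4.19 ± 0.30 against WT and 3.27 against set2Δ. SCW11 changed by −2.0 in WT, and the difference was 5.36 ± 0.36. DSE2 changed by −1.78 in WT, and the difference was 5.13.

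Genes that build and remodel the cell wall rose with them. Of 53 wall genes, 37 were higher and 8 lower at day 4, 20 rose and 4 fell at least 2-fold, and the median change was 0.78. Their share of all counts went from between 2.6 and 2.74% at day 1 to between 5.93 and 6.48% at day 4. EXG1 (YLR300W, chromosome XII, 728955 to 730301), the main exo-glucanase of the wall, had 90.4, 133 and 112 CPM at day 1 and 1830, 1780 and 1860 CPM at day 4, a 16.2-fold rise (4.02 ± 0.12, adjusted p = 2.38e-16 by edgeR with Benjamini-Hochberg adjustment). Every day 4 library of EXG1 was more than 10 times above every day 1 library. EXG1 also rose in WT (2.0) and set2Δ (2.37), and its rise in bre1Δ was larger than in WT by 2.03. SUN4, of the SUN family of wall proteins active in septation, had 157, 333 and 292 CPM at day 1 and 2170, 1850 and 2230 CPM at day 4 (3.0 ± 0.23), whereas it changed by −1.55 in WT, a difference of 4.55. PSA1, which makes the GDP-mannose used for wall mannoproteins, had 882, 1530 and 1500 CPM at day 1 and 11400, 9740 and 11500 CPM at day 4 (3.06 ± 0.19). TOS1, a covalently bound wall protein, rose by 3.03 ± 0.15, KNH1, which acts in wall glucan synthesis, by 2.68 ± 0.09, and CRH1, a transglycosylase that joins chitin to glucan, by 2.31 ± 0.06.

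The pathway that senses wall damage runs from the Wsc sensors through Rom1, Rom2 and Rho1 to protein kinase C and the MAP kinase Slt2. SLT2 (chromosome VIII, 168890 to 170344) had 93.9, 90.9 and 87.1 CPM at day 1 and 400, 386 and 409 CPM at day 4, a 4.40-fold rise (2.14 ± 0.07) that was larger than the WT change by 1.32. PST1, a wall protein gene that this pathway induces, went from 137, 136 and 148 CPM to 761, 728 and 772 CPM (2.42 ± 0.08), and PRM5, another such gene, from 31.1, 33.4 and 29.1 CPM to 172, 172 and 176 CPM (2.47 ± 0.06). Neither gene's groups overlapped. The sensor gene WSC3 rose by 1.44 ± 0.07, and MSG5, a phosphatase that acts on Slt2, by 1.35 ± 0.08. ROM1, which encodes an exchange factor for Rho1, fell from 397, 365 and 386 CPM to 130, 135 and 126 CPM (−1.56 ± 0.06). Over all 25 genes of the pathway 15 were higher and 5 lower, with a median of 0.37. Against WT the change was higher for 11 and lower for 9, so the pathway as a whole did not move one way relative to WT. Glycosylation genes, which act on secreted and wall proteins, were higher for 27 and lower for 7 of 38, with a median of 0.38, and 28 of the 38 had a higher change than in WT while 3 had a lower one.

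Ribosomal protein genes rose in bre1Δ between day 1 and day 4. Of 57 genes of the small cytosolic subunit, 56 were higher and 1 lower, with a median of 1.00 and 28 that rose at least 2-fold. Of 81 genes of the large subunit, 72 were higher and 3 lower, with a median of 0.86 and 30 that rose at least 2-fold. Small subunit genes took 2.14 to 2.36% of counts at day 1 and 3.78 to 3.82% at day 4, and large subunit genes 2.78 to 2.98% and 4.41 to 4.54%. RPS28B (YLR264W, chromosome XII, 673131 to 673334) had 46.0, 56.5 and 48.1 CPM at day 1 and 324, 325 and 317 CPM at day 4, a 6.38-fold rise (2.67 ± 0.08, adjusted p = 1.25e-16 by edgeR with Benjamini-Hochberg adjustment). Its day 4 libraries differed by less than 3% from each other. RPL33B went from 56.8, 68.3 and 73.0 CPM to 402, 374 and 397 CPM (2.56 ± 0.10). RPS20, the small subunit gene that was lower, had 1390, 1400 and 1540 CPM at day 1 and 1170, 1210 and 1190 CPM at day 4 (−0.27). The change was higher than in WT for 47 and lower for 4 of the 57 small subunit genes, and higher for 62 and lower for 11 of the 81 large subunit genes. Against set2Δ, where the medians were 1.19 and 1.29, it was higher for 12 and lower for 30 of the former and higher for 14 and lower for 45 of the latter. Most ribosomal proteins of yeast are made from a pair of near-identical genes. In none of the 59 such pairs did both genes pass the test in opposite directions, and in 8 the changes differed by more than 1 on the log2 scale. RPL33A, for example, stood at 0.07 where RPL33B rose by 2.56, and RPS9B rose by 0.84 where RPS9A rose by 2.39. These pairs were picked after their values were seen, and 0 to 20.2% of the 50-base windows of the genes in those 8 pairs also occur elsewhere in the genome, which limits how surely reads of the copies were kept apart.

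The machinery that makes ribosomes rose less evenly. All 7 genes specific to RNA polymerase I, which transcribes ribosomal RNA, were higher, with a median of 1.12, but not by like amounts. RPA12 (chromosome X, 555195 to 555572) had 15.7, 14.5 and 13.8 CPM at day 1 and 45.3, 50.9 and 41.9 CPM at day 4 (1.65 ± 0.12), while RPA190, the largest subunit, rose by 0.17. The RPA190 call was lost without the first replicate of day 1 (0.12, adjusted p = 0.115) and without that of day 4 (0.15, adjusted p = 0.07), by edgeR with Benjamini-Hochberg adjustment. It was also lost with upper quartile scaling (0.13), in both limma fits on log2 FPKM (0.14 and 0.15), with replicates 1 and 3 of day 4 summed (0.16) and in a test for a change beyond 1.5-fold. Of 46 genes of the small subunit processome, which cuts and folds early ribosomal RNA, 31 were higher and 6 lower with a median of 0.54, and of 61 large subunit assembly genes 44 were higher and 13 lower with a median of 0.42. NOP1 (chromosome IV, 427364 to 428347), the methyltransferase of box C/D small nucleolar ribonucleoproteins, went from 74.0, 87.9 and 77.9 CPM to 288, 239 and 305 CPM (1.79 ± 0.08). In set2Δ NOP1 changed by −2.13, and the difference was 3.92. SNU13, which binds the same class of RNAs, went from 25.7, 33.9 and 28.5 CPM to 164, 172 and 157 CPM (2.47 ± 0.10). Its rise could not be told from that in WT (difference 0.06, adjusted p = 0.702 by edgeR with Benjamini-Hochberg adjustment) and exceeded the set2Δ change by 3.88. Translation factors were higher for 29 and lower for 1 of 35 (median 0.39; none was lower without replicate 2 of day 1 or without replicate 1 or 3 of day 4, and 2 were without replicate 2 of day 4), with YEF3, the fungal elongation factor, going from 379, 416 and 419 CPM to 1160, 1150 and 1150 CPM. tRNA synthetases were higher for 16 and lower for 3 of 21 (median 0.58). RNA polymerase III genes showed no common direction, with 2 higher and 3 lower of 10 (1 lower without replicate 2 of day 1) and a median of 0.00. Mitochondrial ribosomal protein genes were split, with 27 higher and 19 lower of 71 and a median of 0.02.

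**Figure D2:**
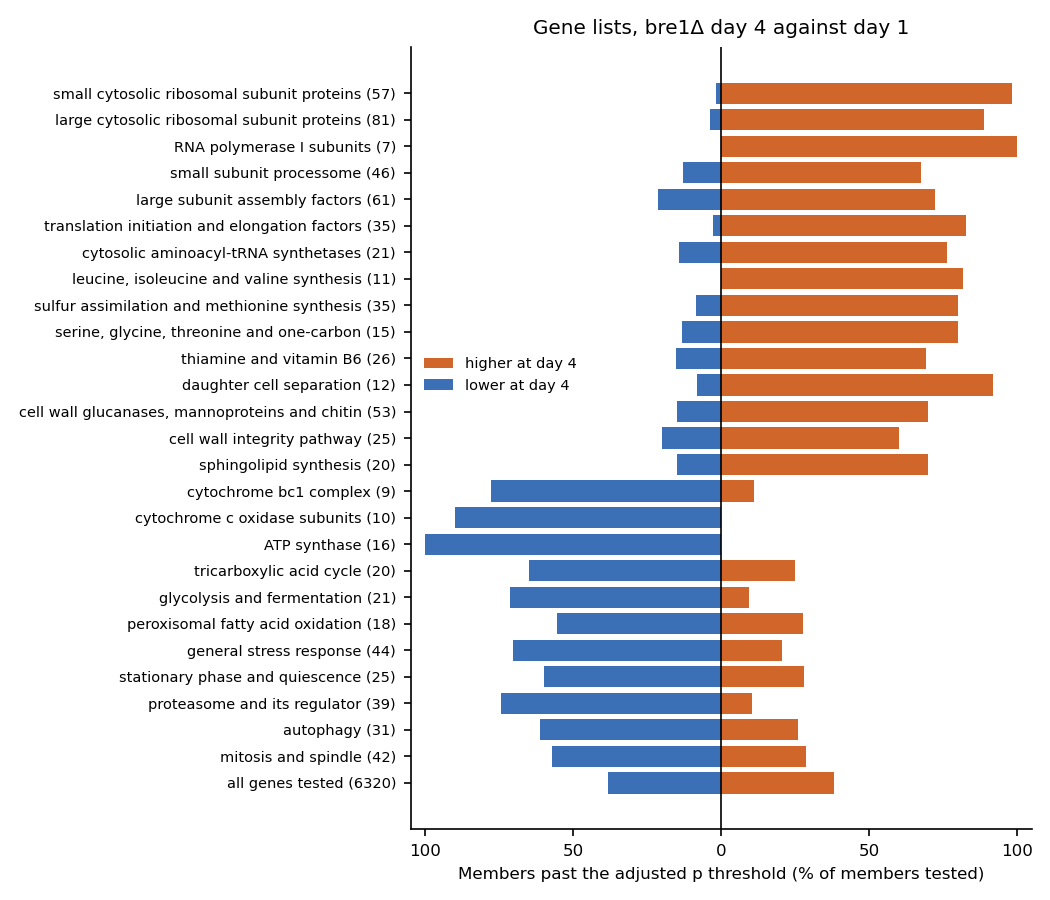
Percent of the tested members of each gene list that were higher (to the right) or lower (to the left) at day 4 than at day 1 in bre1Δ, with all genes tested as the reference bar. Among all genes 37.9% were higher and 38.4% lower, and the ribosomal protein, daughter separation and branched-chain amino acid bars lie far to the right while those of cytochrome oxidase and ATP synthase lie to the left.

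Genes that make amino acids rose as a group. Of 119 such genes 84 were higher and 19 lower, with a median of 0.50. The leucine, isoleucine and valine pathway had 9 of 11 genes higher and none lower, with a median of 1.12. ILV5, which encodes the acetohydroxyacid reductoisomerase, had 524, 598 and 505 CPM at day 1 and 1560, 1380 and 1600 CPM at day 4 (1.48 ± 0.09). LEU4, the main alpha-isopropylmalate synthase gene, rose by 1.12 ± 0.15, and BAT1, the mitochondrial branched-chain transaminase gene, went from 74.9, 81.2 and 68.9 CPM to 202, 179 and 197 CPM. All 11 genes had a higher change than in WT, where the median was −0.78, and 10 had a higher change than in set2Δ. TRP4 of tryptophan synthesis went from 19.0, 23.2 and 20.7 CPM to 96.0, 86.3 and 91.4 CPM (2.11 ± 0.09), a change higher than in WT by 3.14. GCN4, the activator of amino acid genes that is controlled mostly by its translation, had 2030, 1940 and 1990 CPM at day 1 and 2700, 2570 and 2740 CPM at day 4 (0.43 ± 0.06). The core of its binding site, TGACTC on either strand, was present in 44.0% of promoters (from 250 bases before the coding start to 50 after it) of the amino acid genes that rose, in 43.0% of those of the whole list, in 26.3% of those of members that fell, in 8.53% of those of all genes that rose at least 2-fold and in 8.11% of all promoters.

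Sulfur assimilation and methionine synthesis was another block, with 28 of 35 genes higher and 3 lower, 12 that rose at least 2-fold and a median of 0.71. CYS3 (YAL012W, chromosome I, 130799 to 131983), which makes cysteine from cystathionine, had 30.2, 44.0 and 37.1 CPM at day 1 and 163, 154 and 166 CPM at day 4, a 4.30-fold rise (2.11 ± 0.11). The groups were far apart, and the change was higher than in WT by 2.39. MET17, which joins sulfide to O-acetylhomoserine, went from 60.1, 61.5 and 40.9 CPM to 236, 273 and 234 CPM (2.19 ± 0.14), and STR3, which makes homocysteine from cystathionine, rose by 1.96 ± 0.09. Stretches of 300 bases, from 250 before the coding start to 50 after it, were cut from the RefSeq R64 genome for 5907 genes, and a few are shown. Letters that match a motif are not binding sites by that alone. The CYS3 stretch is shown since it had the largest change among the genes of this list with an E-box of the factor Cbf1, the letters CACGTG, which read the same on both strands.

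CYS3, chrI:130549-130848, plus strand: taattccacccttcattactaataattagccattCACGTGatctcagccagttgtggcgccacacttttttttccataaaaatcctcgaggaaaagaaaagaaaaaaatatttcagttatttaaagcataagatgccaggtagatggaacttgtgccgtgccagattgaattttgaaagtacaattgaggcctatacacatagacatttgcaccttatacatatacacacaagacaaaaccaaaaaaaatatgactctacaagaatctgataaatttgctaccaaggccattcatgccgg

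The E-box, in capitals, begins at −216 from the coding start. It was present in 10 of the 36 promoters of the list (27.8%), in 25.0% of those of members that rose and in 2.93% of all promoters.

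The largest rise among all named genes was that of PDR12 (YPL058C, chromosome XVI, 445842 to 450377), the plasma membrane transporter that exports weak organic acids. It had 39.7, 38.4 and 33.4 CPM at day 1 and 1150, 946 and 1150 CPM at day 4, a 29.2-fold rise (4.87 ± 0.10, adjusted p = 6.83e-19 by edgeR with Benjamini-Hochberg adjustment). It changed by 1.00 in WT and by 0.70 in set2Δ, so its rise was larger by 3.87 ± 0.13 and 4.17. Its list did not share this rise. Of 24 genes of the weak acid response and drug efflux, PDR12 among them, 9 were higher and 12 lower, with a median of −0.25. At least 2-fold, 4 rose and 4 fell. GAT1 (YFL021W, chromosome VI, 95966 to 97498), an activator of genes for poor nitrogen sources, had 46.2, 71.5 and 69.9 CPM at day 1 and 686, 553 and 693 CPM at day 4, a 10.2-fold rise (3.36 ± 0.17). In WT the difference between days was −0.07, which did not pass the test, and the difference was 3.43. GAP1 (chromosome XI, 515063 to 516871), the general amino acid permease, went from 221, 234 and 207 CPM to 967, 953 and 994 CPM (2.14 ± 0.07), where it fell in WT (−1.60). MEP2, an ammonium permease, rose by 1.95 ± 0.09. Of 33 genes under nitrogen catabolite repression 17 were higher and 8 lower, with a median of 0.16. At least 2-fold, 9 rose and 3 fell, where 9.92% of all genes rose and 7.85% fell. Rises as large as those of GAT1, GAP1 and MEP2 were thus not shared by most of the list.

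Other risers came from vitamin, lipid and nucleotide synthesis. Thiamine and vitamin B6 genes were higher for 18 and lower for 4 of 26 (2 lower without replicate 3 of day 1), with a median of 0.71. THI4, which makes the thiazole of thiamine, had 818, 902 and 1200 CPM at day 1 and 3960, 3600 and 4080 CPM at day 4 (1.99 ± 0.13), a smaller rise than in set2Δ, where it was 8.94 (difference −6.94). THI22 went from 17.1, 17.9 and 20.8 CPM to 143, 134 and 138 CPM (2.90 ± 0.08). URA1, the dihydroorotate dehydrogenase of pyrimidine synthesis, went from 230, 232 and 250 CPM to 1050, 936 and 1040 CPM (2.09 ± 0.06), while it fell by 1.55 in WT and by 1.68 in set2Δ on the log2 scale. Sphingolipid genes were higher for 14 and lower for 3 of 20 with a median of 0.45, among them the ceramide synthase gene LAC1 (2.05 ± 0.07). In fatty acid synthesis 6 of 11 were higher and 3 lower, and 10 of the 11 had a higher change than in WT. Ergosterol genes were mixed, with 13 higher and 9 lower of 27, although ERG11, the lanosterol demethylase gene, rose by 1.85 ± 0.08. MSN4, a transcription factor of the stress response, went from 43.7, 56.9 and 54.1 CPM to 326, 312 and 332 CPM (2.64 ± 0.09), and its partner MSN2 rose by 0.90 ± 0.06. The antioxidant genes SRX1 (2.64 ± 0.21) and TRR1 (1.89 ± 0.10) rose within a list of 33 oxidative stress genes of which 7 were higher and 18 lower.

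Ty retrotransposon gag-pol genes made up 11 of the 20 genes with the largest falls among those with at least 20 CPM and groups that do not overlap, and the group was described after this was seen. Of 39 Ty gag-pol genes tested, 37 were lower at day 4, 29 of them at least 2-fold, and 1 was higher. One of them had no count in any day 4 library. For the other 38 the median change was −1.76, with a range from −5.15 to 0.67. Of the 50-base windows of each gene, 65.0 to 100% were found elsewhere in the genome. How reads were shared out among like copies is thus uncertain, and a sum depends less on this than single genes do. The genes were not split by Ty family, and the sum pools them all. Summed over all gag-pol genes the level was 2270, 2270 and 2420 CPM at day 1 and 374, 363 and 375 CPM at day 4, with no overlap. In WT the means of the same sum were 2300 CPM at day 1 and 1740 CPM at day 4, and in set2Δ 1990 and 968 CPM. Such sums follow the genes with the most reads, such as YBL005W-B, with means of 439 and 24.2 CPM in bre1Δ. They do not stand for every gene. YLR410W-B, the gene that was higher, went from 56.4, 60.2 and 78.2 CPM to 109, 96.5 and 104 CPM in bre1Δ (0.67 ± 0.10). YDR210W-B stood at 0.06 and did not pass the test, and YGR109W-B changed by −0.43 ± 0.09. The change was lower than in WT for 22 of the 39 and lower than in set2Δ for 24. The 3 gag genes tested all fell, with a median of −2.63.

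Genes for making glucose from ethanol fell sharply at the first committed step. PCK1 (YKR097W, chromosome XI, 631152 to 632801), the phosphoenolpyruvate carboxykinase, had 7960, 7940 and 6520 CPM at day 1 and 858, 737 and 876 CPM at day 4, a 9.07-fold fall (−3.18 ± 0.11, adjusted p = 8.23e-16 by edgeR with Benjamini-Hochberg adjustment). PCK1 fell in WT as well, and the fall in bre1Δ was larger by 0.54. FBP1, the fructose bisphosphatase, went from 1580, 1740 and 1430 CPM to 572, 474 and 578 CPM (−1.55 ± 0.09), a smaller fall than the −3.42 of WT. ADH2, which oxidises ethanol, went from 5930, 5930 and 4660 CPM to 1580, 1600 and 1650 CPM (−1.78 ± 0.12), between −5.03 in WT and 3.27 in set2Δ. The list of 26 genes for gluconeogenesis, the glyoxylate cycle and use of non-fermentable carbon was evenly split, 11 higher and 11 lower with a median of 0.06, where the WT median was −2.16, and 22 of the 26 had a higher change than in WT. Glycolysis genes were lower for 15 and higher for 2 of 21, with a median of −0.43. TDH3, the most abundant glyceraldehyde phosphate dehydrogenase gene, went from 7530, 9460 and 10400 CPM to 3620, 3100 and 3680 CPM (−1.40 ± 0.11).

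Genes of several respiratory complexes fell. Of 10 cytochrome oxidase genes 9 were lower and none higher, with a median of −1.03, and the remaining one, COX8, stood at −0.03 and did not pass the test. COX7 (YMR256C, chromosome XIII, 778945 to 779127) had 978, 824 and 839 CPM at day 1 and 305, 298 and 314 CPM at day 4, a 2.88-fold fall (−1.53 ± 0.09). In WT COX7 rose by 1.68, and the difference was −3.21. All 16 ATP synthase genes were lower, with a median of −0.70, 7 of 9 genes of the cytochrome bc1 complex were lower and 1 higher, with a median of −0.67 (none was higher without replicate 1 of day 1 or replicate 3 of day 4), and all 4 succinate dehydrogenase genes were lower, with a median of −0.40. The 7 genes for NADH dehydrogenases and cytochrome c did not share this direction, with 1 higher, 3 lower and a median of 0.02. QCR10 of the bc1 complex went from 878, 770 and 755 CPM to 310, 310 and 304 CPM (−1.38 ± 0.07), and ATP1, the alpha subunit of the ATP synthase, from 2460, 2400 and 2240 CPM to 1300, 1240 and 1310 CPM (−0.88 ± 0.06). Every one of the 10 cytochrome oxidase, 9 bc1 and 16 ATP synthase genes had a lower change than in WT, where the medians were 0.97, 0.72 and 0.55. Against set2Δ this was not so: of the 16 ATP synthase genes 3 had a higher and 7 a lower change, and of the 10 cytochrome oxidase genes 1 had a higher and 5 a lower change. The letters CCAAT, the core of the site bound by the Hap complex, stood in 90.0% of cytochrome oxidase promoters and in 43.6% of all promoters. They stood in 8 of the 9 promoters of the cytochrome oxidase genes that fell. Over all genes, they stood in 41.0% of promoters of those that fell at least 2-fold and in 38.6% of those that rose at least 2-fold. The letters thus marked the list and were not more common among falling genes.

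Stress and stationary phase genes, which are usually high in old cultures, mostly fell in bre1Δ. Of 44 genes of the general stress response 31 were lower and 9 higher, with a median of −0.84 and 20 that fell at least 2-fold. They took 5.10 to 5.23% of counts at day 1 and 2.61 to 2.64% at day 4. Of 25 stationary phase genes 15 were lower and 7 higher, with a median of −0.54. The medians of these lists were −0.20 and −0.01 in WT and 0.28 and 0.61 in set2Δ, where 19 of the 25 stationary phase genes were higher and 3 lower. Of the 44 general stress genes, 30 had a lower change than in WT and 31 a lower change than in set2Δ. The stretches of GAD1 and GND2 are shown because they had the largest falls among the listed genes with a stress response element, the letters AGGGG on either strand, which Msn2 and Msn4 bind.

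GAD1, chrXIII:770551-770850, plus strand: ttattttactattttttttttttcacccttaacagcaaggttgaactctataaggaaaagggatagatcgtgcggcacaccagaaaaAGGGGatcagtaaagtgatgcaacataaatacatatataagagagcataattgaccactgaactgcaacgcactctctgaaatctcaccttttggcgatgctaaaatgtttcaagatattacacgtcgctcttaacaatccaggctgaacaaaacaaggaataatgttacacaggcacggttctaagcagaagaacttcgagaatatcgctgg
GND2, chrVII:1004374-1004673, plus strand: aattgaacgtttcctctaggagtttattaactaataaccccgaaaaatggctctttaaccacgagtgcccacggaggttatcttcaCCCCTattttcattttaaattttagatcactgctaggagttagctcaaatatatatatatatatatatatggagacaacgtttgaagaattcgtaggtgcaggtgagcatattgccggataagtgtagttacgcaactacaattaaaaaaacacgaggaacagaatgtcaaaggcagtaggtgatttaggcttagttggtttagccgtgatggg

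The match, in capitals, begins at −163 in GAD1 and, as CCCCT, at −164 in GND2. The letters stood in 25 of the 44 promoters of the whole list (56.8%), in 21 of the 31 of listed genes that fell (67.7%) and in 2 of the 9 of those that rose (22.2%). Over all genes, they stood in 32.8% of the promoters of those that fell at least 2-fold and in 21.8% of all promoters.

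GAD1 (YMR250W, chromosome XIII, 770801 to 772558), which turns glutamate into gamma-aminobutyrate, had 1360, 1480 and 1380 CPM at day 1 and 316, 343 and 312 CPM at day 4, a 4.34-fold fall (−2.12 ± 0.06, adjusted p = 3.28e-17 by edgeR with Benjamini-Hochberg adjustment). HSP12, a small membrane-binding stress protein, went from 6750, 6830 and 6800 CPM to 2390, 2790 and 2420 CPM (−1.42 ± 0.09), and SSA3, an Hsp70 made after the diauxic shift, from 4720, 4880 and 4610 CPM to 1060, 1130 and 1070 CPM (−2.12 ± 0.08). The 3 libraries of a day agreed closely for these genes and the days did not overlap. CTT1, the cytosolic catalase, went from 311, 304 and 340 CPM to 94.6, 94.1 and 100 CPM (−1.72 ± 0.08). YNL134C (chromosome XIV, 372451 to 373581), an uncharacterised relative of alcohol dehydrogenases, went from 1030, 1110 and 1240 CPM to 133, 135 and 132 CPM (−3.08 ± 0.11), while its WT change was higher by 3.45 on the log2 scale (difference −3.45). Falls of more than 2 on the log2 scale were also seen for SPG1, a stationary phase gene (−2.66 ± 0.12), NQM1, a transaldolase (−2.74 ± 0.10), the hydrophilin gene GRE1 (−2.25 ± 0.10) and PHM7 (−2.36 ± 0.11). Heat shock and chaperone genes as a whole did not move one way, with 13 higher and 12 lower of 28 and a median of −0.02. Among them YDJ1, an Hsp40 co-chaperone, went from 67.0, 86.7 and 78.6 CPM to 268, 264 and 269 CPM (1.78).

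Most proteasome genes fell. Of 39 genes, with their regulator gene RPN4 counted in, 29 were lower and 4 higher. The median was −0.41, and 5 fell at least 2-fold. RPT6 (YGL048C, chromosome VII, 410069 to 411286), an ATPase of the regulatory particle, had 423, 421 and 404 CPM at day 1 and 173, 193 and 176 CPM at day 4, a 2.31-fold fall (−1.21 ± 0.05). PUP2, a subunit of the core particle, fell by 1.12 on the log2 scale and RPN8, of the lid, by 1.03. Against WT 8 had a higher and 22 a lower change, and against set2Δ 32 had a lower and none a higher change. RPN4, the activator of proteasome genes, was looked up after these values were seen. RPN4 is 1 of the 4 list members that rose, from 273, 252 and 229 CPM to 387, 427 and 384 CPM (0.67 ± 0.06). The RPT6 stretch is shown as the list's largest fall with GGTGGCA, the first letters of the element that Rpn4 binds, on either strand.

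RPT6, chrVII:411237-411536, minus strand: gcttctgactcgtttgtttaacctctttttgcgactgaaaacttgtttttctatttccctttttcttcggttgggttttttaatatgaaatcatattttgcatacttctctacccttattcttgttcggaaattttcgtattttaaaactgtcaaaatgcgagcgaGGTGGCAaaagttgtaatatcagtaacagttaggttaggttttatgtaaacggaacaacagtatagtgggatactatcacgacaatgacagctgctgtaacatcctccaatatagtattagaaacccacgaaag

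The match, in capitals, begins at −84. The letters stood in 22 of the 29 promoters of members that fell (75.9%), in 75.0% of those of members that rose and in 2.89% of all promoters, so their presence did not separate members by direction.

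PHO89 (YBR296C, chromosome II, 796798 to 798522), a phosphate transporter that runs on sodium, had 2470, 2590 and 2630 CPM at day 1 and 429, 386 and 420 CPM at day 4, a 6.23-fold fall (−2.64 ± 0.14, adjusted p = 4.58e-13 by edgeR with Benjamini-Hochberg adjustment). It rose in both other strains, by 1.93 in WT and 4.60 in set2Δ, and the differences were −4.57 and −7.24. SPL2, which acts on low-affinity phosphate uptake, fell from 32.8, 37.3 and 50.1 CPM to 12, 9.96 and 12 CPM (−1.81 ± 0.12). The list of 24 phosphate genes had no common direction, with 8 higher and 9 lower and a median of −0.06. Autophagy genes were lower for 19 and higher for 8 of 31 with a median of −0.30, and ATG5, which is needed to form the autophagosome, fell from 194, 175 and 212 CPM to 70.1, 63.9 and 71.1 CPM (−1.50 ± 0.08).

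**Figure D3:**
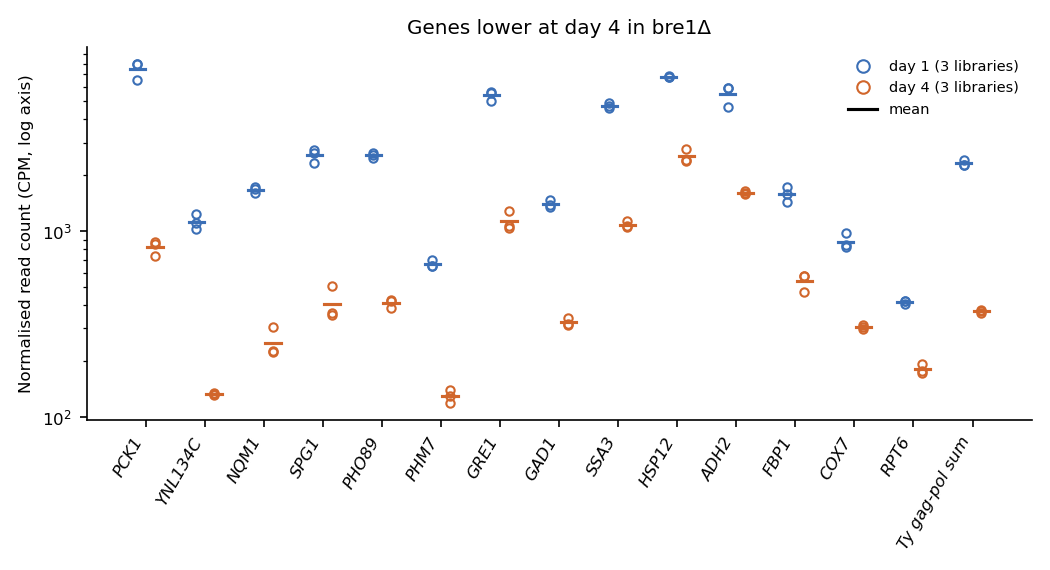
CPM in each bre1Δ library, on a log axis, of genes that fell from day 1 to day 4 and of the sum of Ty gag-pol genes, with the days as separate points. PCK1 goes from 6520 to 7960 CPM at day 1 to 737 to 876 CPM at day 4, and the Ty sum from 2270 to 2420 CPM to 363 to 375 CPM.

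Some isoenzymes of one reaction moved apart. Of 30 pairs of related genes, 12 changed in the same direction, 7 in opposite directions, and in 11 at least one gene did not pass the test. Levels per length are given as mean FPKM of 3 libraries. HXK2 (YGL253W, chromosome VII, 23935 to 25395), the hexokinase of growth on glucose, had 41.6, 53.0 and 42.2 CPM at day 1 and 345, 280 and 348 CPM at day 4, a 7.07-fold rise (2.82 ± 0.11), and per length went from 33.3 to 233 FPKM. HXK1, usually the isoenzyme of cells without glucose, fell by 0.58 on the log2 scale and went from 310 to 205 FPKM. HXK1 was thus the higher of the pair at day 1, and at day 4 the means of both lay close. ACS2, the acetyl-CoA synthetase used on glucose, rose by 2.24 from 81.6 to 381 FPKM, and ACS1, used on other carbon sources, fell by 0.76 from 1400 to 814 FPKM. PDC5, the minor pyruvate decarboxylase gene, rose by 1.56 from 9.40 to 27.6 FPKM, and PDC1, the major one, fell by 1.41 from 3180 to 1180 FPKM. GPD1, the glycerol phosphate dehydrogenase gene of osmotic stress, fell by 1.47 from 403 to 143 FPKM, and GPD2, that of cells without oxygen, rose by 0.64 from 89.8 to 138 FPKM. The remaining opposite pairs moved by less than 0.6 on the log2 scale: HSC82 (0.34) and HSP82 (−0.57), GDH1 (0.35) and GDH3 (−0.39), and LYS21 (0.24) and LYS20 (−0.32), where 36.7 and 37.8% of windows are shared with other genes. MIG1, the repressor that works with Hxk2 on glucose, went from 57.4, 76.5 and 77.2 CPM to 376, 331 and 375 CPM (2.35 ± 0.12). GND1 and GND2, the isoenzymes of 6-phosphogluconate dehydrogenase, are not among the 30 pairs and were set side by side after their values were seen. GND1 rose by 2.99 ± 0.11, from 41.0 to 322 FPKM, and GND2 fell by 2.04 on the log2 scale, from 590 to 141 FPKM.

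**Figure D4:**
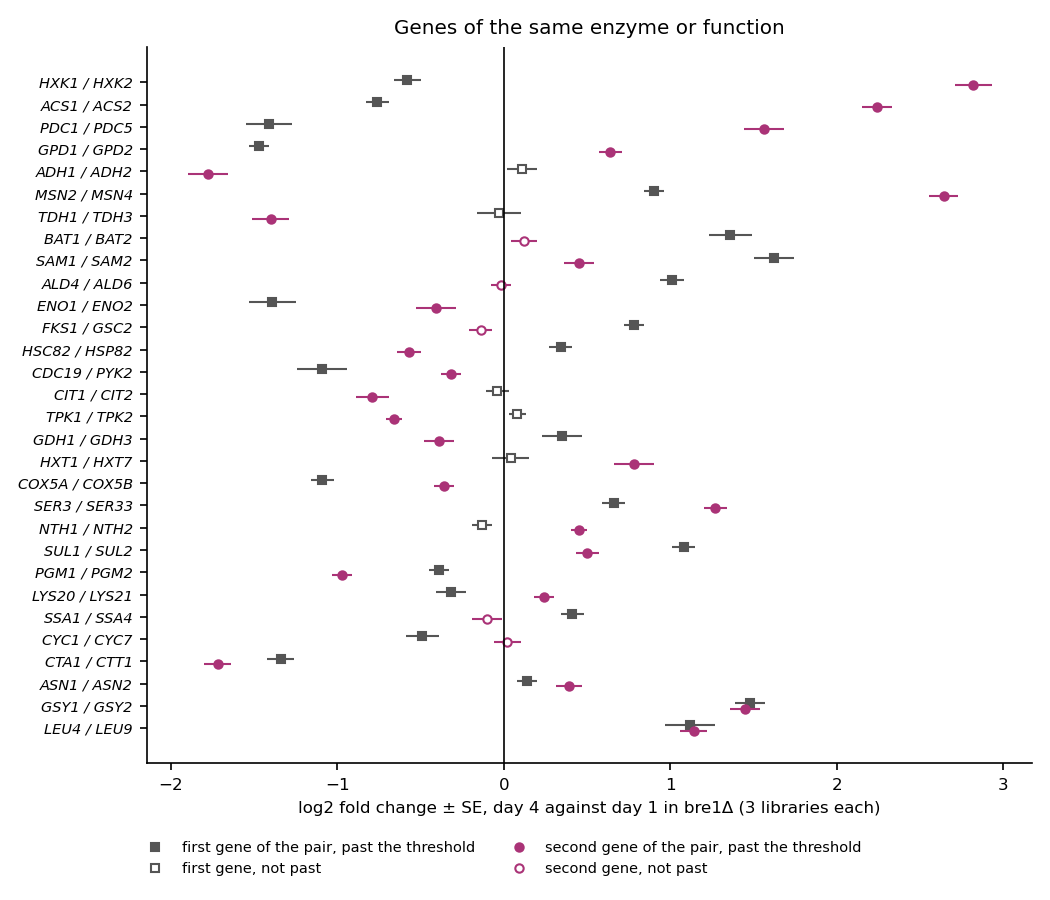
Log2 fold change of day 4 over day 1 in bre1Δ for the 30 pairs of related genes, each with its SE, with filled points for genes past an adjusted p of 0.05. HXK2 at 2.82 and HXK1 at −0.58 lie on opposite sides of 0, and GSY1 and GSY2 lie together at 1.48 and 1.45.

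Cell cycle genes were split by phase. Of 17 genes of G1 and Start 13 were higher and 1 lower, with a median of 0.43, and 12 had a higher change than in WT. SIC1, the inhibitor that holds cells before S phase, had 171, 239 and 240 CPM at day 1 and 683, 635 and 697 CPM at day 4 (1.63 ± 0.11). PCL9, a cyclin of the kinase Pho85 made in early G1, went from 46.0, 63.3 and 61.7 CPM to 312, 322 and 322 CPM (2.48 ± 0.11). Of 42 genes of mitosis 24 were lower and 12 higher, with a median of −0.26 and 7 that fell at least 2-fold, among them MOB1 of the mitotic exit network, which went from 97.9, 103 and 98.1 CPM to 42.1, 44.6 and 43.7 CPM (−1.20 ± 0.06), and BUD4, a marker of the bud neck (−1.23 ± 0.06). S phase genes were mixed, 14 higher and 21 lower of 41. RNR1, the large subunit of ribonucleotide reductase, went from 28.8, 31.8 and 26.1 CPM to 104, 85.2 and 108 CPM (1.77 ± 0.12), while RNR4, of the small subunit, fell by 1.55 on the log2 scale. HTA1, a gene for histone H2A, rose from 406, 443 and 441 CPM to 892, 891 and 920 CPM (1.07 ± 0.05), and 6 of 10 histone genes were higher and 3 lower.

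Genes of the pathway in which Bre1 works showed no common direction. Of 15 genes of H2B ubiquitination and the Paf1 complex 3 were higher and 3 lower (1 lower without replicate 2 of day 1 or replicate 1 of day 4). The other 9 did not pass, where 76.4% of all genes passed. The median was −0.03. The highest value, 2.56, did not pass the test and is that of the deleted gene BRE1 itself, with 0 counts at day 1 and 1, 0 and 1 at day 4. It therefore shows no rise of a gene of the pathway. Of 19 genes for methylation of H3 at lysines 4, 36 and 79, 7 were higher and 8 lower, with a median of −0.01. RAD6, the conjugating enzyme that works with Bre1, had 42.1, 50.3 and 52.0 CPM at day 1 and 70.4, 74.5 and 77.9 CPM at day 4 (0.63 ± 0.07). The groups of RAD6 did not overlap. SET2 rose by 0.39 ± 0.09, a call that was lost in limma on log2(FPKM + 0.1) (0.37, adjusted p = 0.101), and this is a level of mRNA and says nothing of the Set2 protein. SGF73 and SGF11, both of the module that removes ubiquitin from H2B, changed in opposite directions, by 0.81 ± 0.06 and −0.74 ± 0.07. EAF3, whose protein reads methylated lysine 36, fell from 496, 519 and 508 CPM to 205, 233 and 201 CPM (−1.26 ± 0.06), a lower change than in WT by 1.72 (difference −1.72). BRE2, of the complex that methylates lysine 4, fell by 1.09 on the log2 scale. Among genes of nutrient signalling, 12 higher and 13 lower of 30, the kinase gene TOR1 went from 282, 278 and 268 CPM to 146, 140 and 144 CPM (−0.94 ± 0.05) and IRA1, an inhibitor of Ras, from 837, 854 and 832 CPM to 388, 395 and 386 CPM (−1.11 ± 0.06).

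Where bre1Δ and the other strains went different ways was counted over the genes that changed at least 2-fold in bre1Δ. Of the 627 that rose, 263 also rose in WT past the test, 170 fell there and 194 did not pass, and the difference itself passed for 562. Of the 496 that fell, 216 fell in WT, 196 rose and 84 did not pass, and the difference passed for 444. In WT 40 of the risers fell and 109 of the fallers rose at least 2-fold. Over all genes tested, 77.7% changed in WT, 37.2% higher and 40.5% lower, with 12.6% that rose and 6.22% that fell at least 2-fold. In set2Δ 71.6% changed, 34.3% higher and 37.3% lower, with 7.37% and 6.27% at least 2-fold. Against set2Δ, 284 of the 627 rose in both, 169 fell in set2Δ and 174 did not pass, with a difference that passed for 542, and of the 496 the numbers were 224, 146 and 126, with 415. Over all genes tested the difference passed for 76.9% against WT and for 71.8% against set2Δ. The genes counted here were picked by their bre1Δ change, which is also part of the difference. A higher share that passed is thus partly a result of that choice. The genes furthest from WT included some that fell there and not in bre1Δ. ATO3, an ammonium transporter of the membrane, had 188, 216 and 205 CPM at day 1 and 531, 646 and 563 CPM at day 4 in bre1Δ (1.51 ± 0.11), against −3.11 in WT. POX1, the first enzyme of fatty acid oxidation, had 343, 329 and 234 CPM at day 1 and 374, 391 and 375 CPM at day 4 (0.33 ± 0.10, and 0.18 without replicate 3 of day 1), against −3.97 in WT, a difference of 4.30. Of 18 peroxisome and fatty acid oxidation genes, 15 had a higher change than in WT and 15 a lower change than in set2Δ. HXT5, a hexose transporter of slow growth, differed the other way, with 3130, 3120 and 3160 CPM at day 1 and 956, 1040 and 960 CPM at day 4 (−1.67 ± 0.09), against 1.57 in WT.

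**Figure D5:**
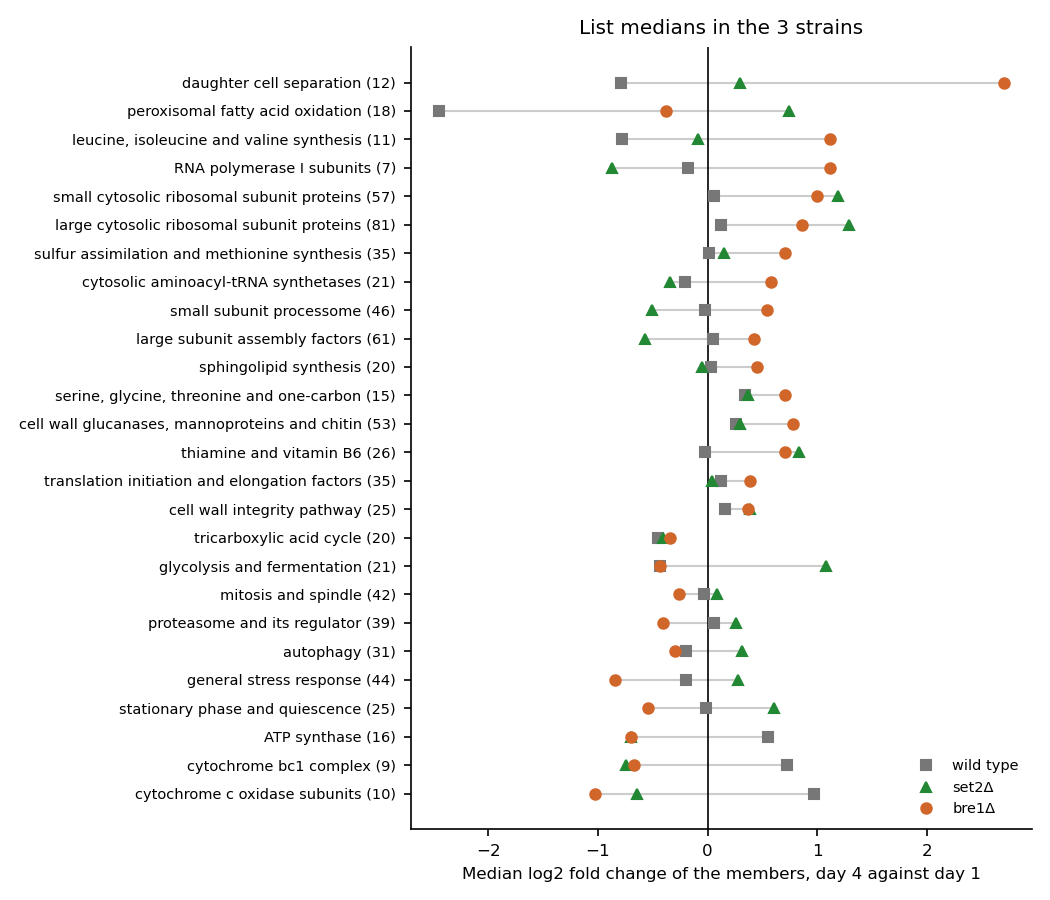
Median log2 fold change of day 4 over day 1 for each gene list in bre1Δ, WT and set2Δ, with 0 marked. The cytochrome oxidase list stands at −1.03 in bre1Δ, 0.97 in WT and −0.64 in set2Δ, and the daughter separation list at 2.7, −0.79 and 0.3.

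Kinds of transcript and gene length were compared with the changes as a description. Protein-coding genes, 5824 of those tested, had a median change of 0.00. Small nucleolar RNA genes had a median of −0.52, with 33 lower and 9 higher of 74, in libraries made from polyadenylated RNA, where such RNAs are mostly not captured and their levels depend on processing as well as amount. Across 5824 genes the rank correlation of the bre1Δ change with gene length was 0.00265, where it was −0.248 in WT and 0.123 in set2Δ, and with mean level it was −0.0402. Genes are not independent replicates and these values share the same libraries.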

How the data were processed

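Poly(A) RNA-seq of 18 libraries was used, 3 in each of 6 groups, of which 6 are bre1Δ. Per the submitters' processing notes, reads passed FastQC 0.11.8 and cutadapt 2.6 and were aligned with STAR 2.7.0b to sacCer3, and HTSeq 2.0.2 and, in R 4.2.0, DESeq2 1.36.0 were used. The strand setting and annotation are not given in the sources used here, so overlapping genes are uncertain. The deposited counts are raw reads per gene. The FPKM values deposited by the authors followed from these counts and a gene length, within 2% of the span in the reference for 99.7% of 5981 genes. Of 6837 identifiers 5926 matched an R64 locus tag, 99 a symbol and 6 a synonym, and 806 kept the table's name. A further 4 lines with an emptied name were left out.

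Counts were scaled by TMM and fitted with the quasi-likelihood test of edgeR 4.0.16 (R 4.3.3) over all 18 libraries, with 1 coefficient per group. edgeR's expression filter kept 6320 genes and left out 517. The dispersion was 0.00387, a coefficient of variation of 6.22% between libraries beyond counting noise, which may be technical. The bre1Δ library totals were 14117059, 23335510 and 15971039 counts at day 1 and 13695150, 12500920 and 29514490 at day 4. Values are relative to each library's RNA, so a change in the total mRNA of a cell was not measured. In counts simulated from 6134 genes of these libraries, 100% of 200 genes changed by 1.5-, 2- or 4-fold were recovered among 206 calls, of which 6 were false. The changed genes were drawn from well-counted ones, every gene had the dispersion of 0.00387, and far fewer genes changed than in the data. These settings make recovery easy, so it says little about genes with few counts or a larger spread. Differences between strains are interaction contrasts in the same fit. DESeq2 1.42.0, limma 3.58.1 on log2 FPKM, other scalings, filters and left-out libraries were alternatives. Promoters were cut from the RefSeq R64 genome, and 99.9% of 5907 had ATG at the start.

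The comparison, the gene lists, pairs and motifs were chosen with earlier results of these data known. Named genes are BRE1, its neighbours and SET2, the 20 largest rises and 20 largest falls past the threshold with at least 20 CPM and groups apart, up to 5 members of each list by smallest p, all members of lists of up to 15 genes, the genes of the pairs, the 10 genes with the largest difference in each direction for each strain, and genes whose promoter is shown. RPL33A, RPS9B, RPS20 and RPN4 were named after their values were seen. Of 70 lists used as a description, the text gives those with the clearest counts and those that bear on Bre1. One gene of cell separation and a motif are not reported here.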

Additional observations from a re-analysis of the deposited data

Results flagged for a closer look

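Among the results, differences between strains in the same contrast stood out. The change from day 1 to day 4 in bre1Δ differed from that in WT for 4857 of 6320 genes and from that in set2Δ for 4535, by edgeR's quasi-likelihood test with Benjamini-Hochberg adjustment. Among the 553 genes that the naming rule gave, 7 moved at least 4-fold in bre1Δ and at least 4-fold the opposite way in WT, each with a tested difference. The rule named genes in part by their bre1Δ change and by their difference from WT. That these differences passed is thus partly a result of that choice. SCW11, the wall glucanase gene, rose by 3.36 ± 0.26 in bre1Δ and stood at −2.0 ± 0.25 in WT, a difference of 5.36. THI12, of thiamine synthesis, rose by 2.23 in bre1Δ and stood at −2.28 in WT, a difference of 4.51, and 70.6% of its 50-base windows are shared with other genes. The small nucleolar RNA genes SNR37 (−2.64 against 2.13, difference −4.77), SNR8 (−2.32 against 2.94, difference −5.26) and SNR35 (−2.09 against 3.0, difference −5.09) fell in bre1Δ and rose in WT. They were at low levels in bre1Δ: SNR8 had 10.7, 5.40 and 5.75 CPM at day 1 and 1.04, 1.80 and 1.43 CPM at day 4. The open reading frames YMR173W-A (−2.60 against 2.44, difference −5.03) and YML090W (−2.38 against 2.52, difference −4.90) did likewise. Both were unmatched to the reference annotation, so their overlap with other genes was not measured. YML090W had 10.1, 5.93 and 7.34 CPM at day 1 and 1.88, 1.57 and 1.17 CPM at day 4.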

How the results depend on the processing

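The count of genes changed in bre1Δ was 4827, and every alternative that tests for any change stayed within 1.5 times of it. It was 4805 with library size alone, 4835 with the median of ratios, 4833 with the upper quartile, 4811 with TMM computed without ribosomal protein genes, 4849 without the filter, 4556 with at least 10 CPM in 3 libraries, 4726 with the 6 bre1Δ libraries only, 4820 with DESeq2, and, with limma, 4757 on log2(FPKM + 1) and 4715 on log2(FPKM + 0.1). A test for a change beyond 1.5-fold (glmTreat) called 1810 genes, 989 higher and 821 lower, a narrower question by construction. Leaving out each library in turn gave 4610 to 4742 genes, with 2283 to 2369 higher, 2281 to 2394 lower, and 602 to 665 and 481 to 502 at least 2-fold. The same range was 4697 to 4839 for the difference from WT and 4389 to 4523 for the difference from set2Δ. After the data were seen, replicates 1 and 3 of day 4 were summed (4665 genes) and genes were restricted to protein-coding ones with less than 50% shared windows (4507). In none of these fits did a gene called here pass the test in the opposite direction. Over the scalings the median bre1Δ change of all genes ran from −0.054 to 0.014. List medians moved by at most 0.23 over the alternatives other than that restriction (daughter cell separation), and none of the 38 list medians of at least 0.3 in size changed sign. The difference from set2Δ depended more on scaling, with a median from −0.026 to 0.122. Its counts were 2319 higher and 2216 lower in the main fit, 2194 and 2338 with the median of ratios, and 2639 and 1954 with the upper quartile. For the difference from WT they were 2528 and 2329 in the main fit and 2767 and 2122 with the upper quartile. Replicate numbers gave no pairing: the deviations of libraries with the same number correlated at −0.0106, −0.0609 and 0.0532, and the fit with the replicate number as a block called 4833 genes, or 4621 in the 6 libraries alone. Among single genes 23 values no longer passed under an alternative, 16 of them under glmTreat, and 317 list counts or medians moved by more than 1.5 times or by more than the spread between libraries, 145 of them under glmTreat. Depth limits how far below WT the deleted gene BRE1 could be measured in bre1Δ. It also limits the small RNA genes, which had few counts.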
